A study of Mus musculus with 12 samples.

Results

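The 44 collagen genes of the mouse were followed in ear skin that had been injected with psoriasis-related cytokines. They were found by their gene symbols, as all genes named Col, a number, the letter a and a number in the gene names the authors deposited, and they are 44 of 50684 genes in the count table. RNA-seq was carried out on 12 ear samples in 4 groups of 3 mice, which received PBS as control, IL-17A or IL-36γ alone, or both together (IL-17A + IL-36γ, the combination). All groups were 8-week-old female C57BL/6 mice, for which the labels name no transgene, and 3 of the 5 mice per group in the study were sequenced. Each cytokine was given as 1 µg in 5 µl of PBS into the skin of the ear, alone or with the other, and ears were taken after 4 days of treatment. RNA was made from a part of the ear, while another part went to histology. The ear holds epidermis, dermis and a plate of elastic cartilage between its layers of skin, and which piece each library came from, and so its share of cartilage, is not given in the sources used here. IL-17A is a product of T helper 17 cells that acts on keratinocytes and fibroblasts, and IL-36γ is an IL-1 family cytokine made largely by keratinocytes.

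Collagens are built from chains in which glycine recurs after each pair of other amino acids, and 3 such chains wind into a triple helix. Fibrillar collagens such as types I, III and V form the fibrils of dermis and tendon, and types II, IX and XI form or coat those of cartilage. Type X is a collagen of hypertrophic cartilage. Type IV collagen forms the sheet-like network of basement membranes, type VII the anchoring fibrils under the epidermis, and type XVII is a transmembrane protein of the hemidesmosome, which holds basal keratinocytes to that membrane. The genes were therefore compared as 7 fibrillar, 8 cartilage, 8 basement membrane and 2 epidermal collagens, with the other 19 set beside them.

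The repeat that defines the family could be read in the coding sequence, where a glycine codon (GGN) opens each triplet of codons. All 44 members held an uninterrupted run of at least 18 such codon triplets in their longest GENCODE vM21 coding sequence. Among the 21951 protein-coding genes read in the same way, 65 did, which is 0.296%. The lines below show 54 bases of 7 members from 4 classes, 5′ to 3′ on the coding strand, with the glycine codons in capitals, because they show how alike the coding repeat is in genes that differed in their response.
Col1a2 (fibrillar), chr6:4515481-4515534, exon 8 of 52: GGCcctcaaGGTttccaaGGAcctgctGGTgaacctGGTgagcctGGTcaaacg
Col3a1 (fibrillar), chr1:45325360-45325413, exon 6 of 51: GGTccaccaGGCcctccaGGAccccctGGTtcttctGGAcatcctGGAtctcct
Col9a1 (cartilage), chr1:24210373-24210426, exon 18 of 38: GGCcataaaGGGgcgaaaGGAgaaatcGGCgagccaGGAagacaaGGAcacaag
Col4a1 (basement membrane), chr8:11247042-11247095, minus strand, exon 3 of 52: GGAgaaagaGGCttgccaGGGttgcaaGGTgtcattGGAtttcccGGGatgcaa
Col4a6 (basement membrane), chrX:141192057-141192110, minus strand, exon 27 of 45: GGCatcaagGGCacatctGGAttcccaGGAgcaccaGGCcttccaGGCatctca
Col7a1 (epidermal), chr9:108980207-108980260, exon 106 of 118: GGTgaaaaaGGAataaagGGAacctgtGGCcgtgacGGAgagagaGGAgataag
Col17a1 (epidermal), chr19:47664964-47665017, minus strand, exon 24 of 54: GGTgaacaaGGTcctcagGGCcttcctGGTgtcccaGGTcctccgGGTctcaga
The stretches of Col1a2, Col3a1, Col9a1 and Col7a1 are each a whole exon of 54 bases, and the others lie inside longer exons. The length of the uninterrupted repeat differed between the class medians, while the ranges of some classes overlapped. The median longest run was 338 triplets in the fibrillar class (range 216 to 344) and 165 in the cartilage class (61 to 339). It was 41 in the basement membrane class (30 to 66) and 65.5 in the epidermal class (56 and 75), whose helices carry many interruptions. Exons of exactly 54 bases made up 46.4% of the coding exons of fibrillar and 45.7% of those of cartilage collagens. They were 4.24% in the basement membrane and 5.26% in the epidermal class, against 0.673% of the coding exons of all protein-coding genes. Col3a1, which passed no test, and Col9a1, which fell most with the combination, both carry the repeat.

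The libraries held 25293468 to 34759293 counted reads, and all 44 members passed the filter on low counts, as did 19408 genes in all. Collagen transcripts took 1.35% ± 0.149 (SD, n = 3) of the counts in the PBS control group and 1.295% ± 0.238 with IL-17A. They took 0.918% ± 0.0159 with IL-36γ and 0.902% ± 0.102 with IL-17A + IL-36γ. A pair of libraries stood apart. IL-17A replicate 1 had the highest level of most fibrillar collagens of all 12, and PBS replicate 1 had a summed level of skeletal muscle markers of 419 CPM (counts relative to the total of the library) against 3041 and 3504 in its group. All levels below are CPM scaled by the TMM method, and a gene was called at an adjusted p below 0.05 in edgeR's quasi-likelihood test across all genes. In bulk tissue, fewer cells of a type and less collagen RNA per cell cannot be told apart.

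Against PBS, IL-36γ and the combination lowered collagen transcripts across most classes, while IL-17A changed few. After IL-17A, 2 members were called higher and 2 lower, where the same call was met by 7.44% and 3.49% of all genes tested. With IL-36γ, 22 members (50%) were called lower and 2 higher, against 11.1% lower and 17.3% higher over all genes. The combination lowered 28 of the 44 and raised 2, against 20.9% and 23.7%. More than 2-fold lower were 14 members with the combination, against 6.06% of all genes, 4 with IL-36γ, against 1.98%, and 0 with IL-17A, against 1.03%. The median log2 fold change over the 44 was 0.03 with IL-17A, -0.53 with IL-36γ and -0.77 with the combination. Over all genes tested it was 0.04, -0.02 and -0.03. All 3 libraries lay below all PBS libraries for 7 members with IL-17A, 31 with IL-36γ and 28 with the combination, against 14%, 19.2% and 25.6% of all genes. The 2 called higher with IL-36γ and the 2 with the combination each include Col6a4, which had 1 to 14 counts per library and passed the low-count filter only through groups with IL-36γ. The IL-36γ count varied with the libraries kept, as did the share of all genes. Without PBS replicate 2, 13 members in place of 22 were lower, against 5.94% of all genes in place of 11.1%. Without IL-36γ replicate 2 there were 14, against 5.36%. The median with IL-36γ stayed at -0.73 to -0.58 for fibrillar and -0.52 to -0.33 for basement membrane collagens over the libraries left out. The IL-36γ count was 22 without PBS replicate 1, and the combination lowered 22 to 29 members over all libraries left out in turn. With IL-17A, 0 were higher without PBS replicate 2 or 3, IL-17A replicate 1 or 2 or combination replicate 2, and 5 without IL-17A replicate 3. Those lower with IL-17A ran from 0 without PBS replicate 3 to 4 without PBS replicate 1. Shares of all genes are not given here for the IL-17A and combination counts with libraries left out. Whether those counts exceed such shares is therefore not stated.

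**Figure D1:**
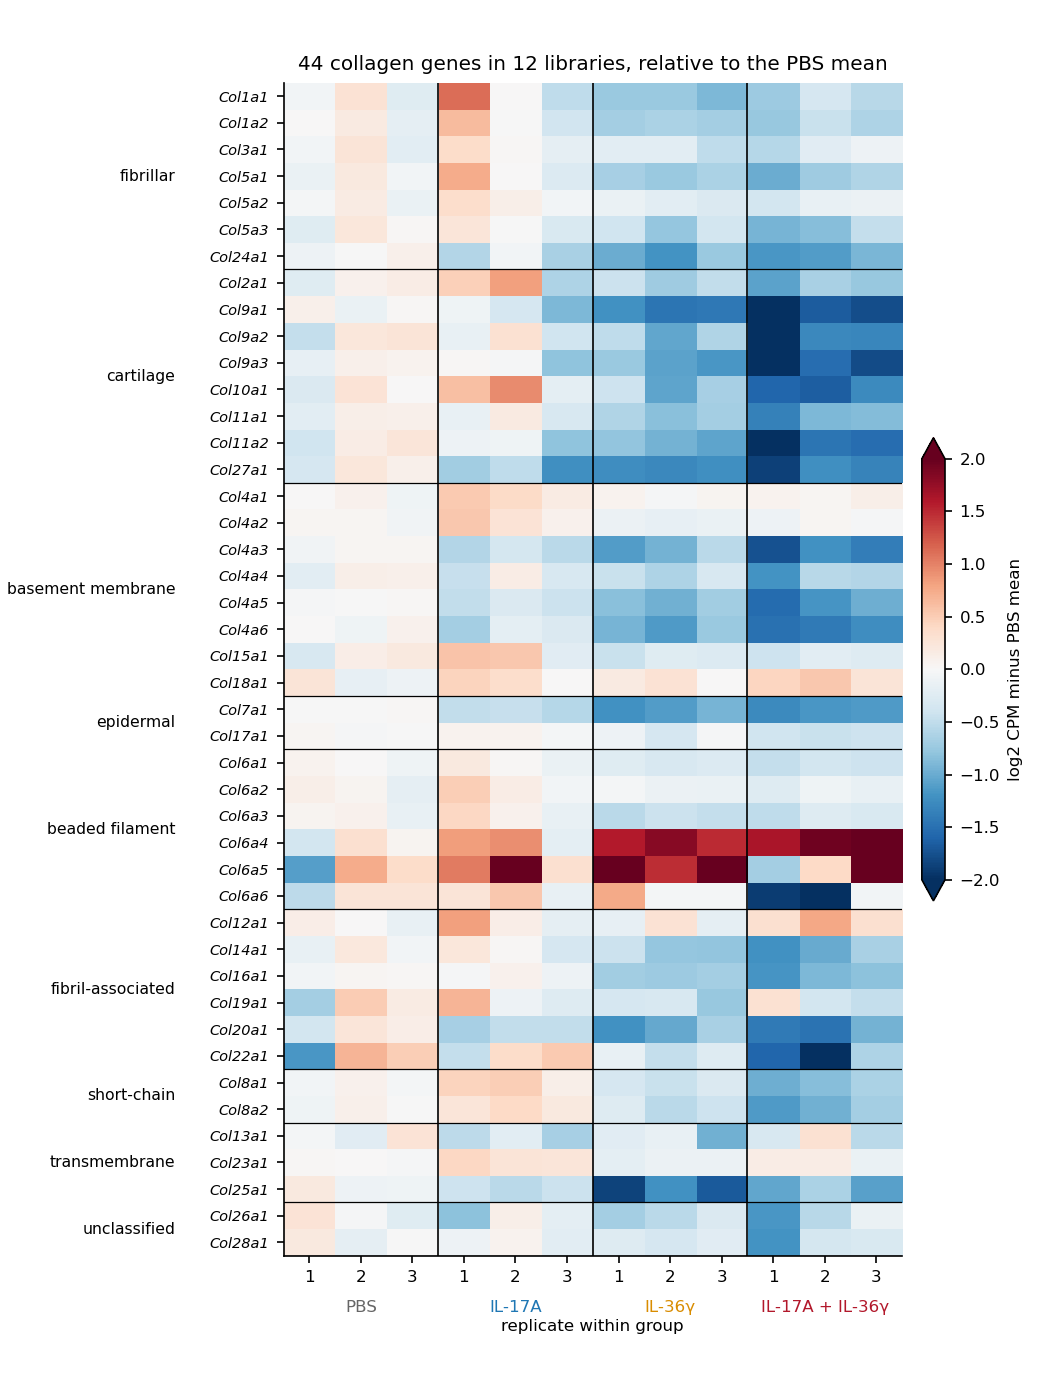
Heat map of 44 collagen genes (rows, by class) in 12 libraries (columns, by group), coloured by log2 CPM minus the mean of the PBS libraries, from blue (lower) to red (higher), with values beyond -2 and 2 drawn in the end colours. The cartilage rows and Col4a3 to Col4a6 are blue in the IL-17A + IL-36γ columns, the Col4a1 and Col4a2 rows stay pale there, and IL-17A replicate 1 is red over most fibrillar rows.

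Cartilage collagens fell the most. With IL-17A + IL-36γ, 8 of 8 were called lower, 7 of them more than 2-fold, and the class median was -1.53. IL-36γ alone lowered 6 of 8 (median -0.85) and IL-17A lowered 1 of 8 (median -0.15, or 0.01 without IL-17A replicate 3). Col9a1 (chr1:24177610-24252684), a chain of the fibril-associated type IX collagen of cartilage, was at 52.5, 44.6 and 49.9 CPM in the PBS libraries. It was at 46.2, 38.9 and 26.1 CPM with IL-17A, at 21.2, 17.8 and 18.1 with IL-36γ, and at 11.5, 15.4 and 14.2 with the combination. Both groups that received IL-36γ lay below every PBS library, and the IL-17A group overlapped with PBS. The combination was 3.57-fold lower than PBS, with a log2 fold change of -1.84 ± 0.18 (SE, adjusted p = 2.8e-05), and IL-36γ gave -1.37 ± 0.18 (adjusted p = 0.00032).

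Col9a3 (chr2:180597790-180622189), the third type IX chain, was at 46.4, 56.2 and 54.5 CPM with PBS and at 53.2, 51.6 and 30.0 with IL-17A. With IL-36γ it was at 31.3, 24.9 and 23.1 CPM, and with the combination at 13.0, 18.1 and 15.1. The groups with IL-36γ did not overlap with PBS, and IL-17A replicate 3 was the low library of its group, as for Col9a1. The log2 fold change was -1.77 ± 0.20 with the combination (adjusted p = 6.6e-05) and -0.99 ± 0.20 with IL-36γ (adjusted p = 0.0041). In the annotation, 6.07% of the exon bases of Col9a3 overlap with Tcfl5 on the opposite strand, and the strand setting of the counting is not given in the sources used here. Col9a2, the remaining chain, fell by 1.54 on the log2 scale with the combination and by 0.74 with IL-36γ (adjusted p = 0.00065 and 0.045). The IL-36γ call of Col9a2 was lost without any 1 of PBS replicates 2 and 3, the 3 IL-36γ libraries or IL-17A + IL-36γ replicate 3 (adjusted p up to 0.157).

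Type XI collagen nucleates cartilage fibrils. Its chain Col11a2 (chr17:34039437-34066685) was at 34.3, 50.4 and 53.9 CPM with PBS and at 42.2, 42.8 and 26.0 with IL-17A. It was at 26.1, 23.4 and 21.8 CPM with IL-36γ and at 11.1, 16.5 and 15.7 with the combination. The combination lay below all other libraries of the study, at -1.68 ± 0.22 against PBS (adjusted p = 0.00013). Its partner Col11a1 (chr3:114030540-114220718) was at 84.8, 107 and 105 CPM with PBS, at 65.1, 55.0 and 61.6 with IL-36γ and at 38.7, 52.7 and 53.7 with the combination. That is a fall of 1.03 ± 0.15 on the log2 scale with the combination (adjusted p = 0.00027) and of 0.71 with IL-36γ (adjusted p = 0.0054), while the IL-17A libraries, at 88.8, 112 and 78.4 CPM, overlapped with PBS.

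Col27a1 (chr4:63214004-63334991), a fibrillar collagen of developing cartilage and other tissues, was the member of this class that IL-17A alone lowered. It was at 106, 155 and 143 CPM with PBS and at 82.4, 93.8 and 56.7 with IL-17A, without overlap. With IL-36γ it was at 56.2, 54.1 and 57.0 CPM, and with the combination at 36.5, 56.5 and 52.5. IL-17A gave -0.79 ± 0.20 (adjusted p = 0.031), IL-36γ -1.27 ± 0.20 (adjusted p = 0.00096) and the combination -1.47 ± 0.20 (adjusted p = 0.00016). The IL-17A call was lost without PBS replicate 2 or 3 or IL-17A replicate 1 or 3, at log2 fold changes of -0.87 to -0.61 and adjusted p of 0.0697 to 0.131. Col10a1, which marks hypertrophic cartilage, fell by 1.53 with the combination (adjusted p = 0.001). Col2a1, known as the main collagen of cartilage, had the lowest PBS mean of the class here, 8.72 CPM. It was at 7.34, 9.23 and 9.61 CPM with PBS and at 4.10, 5.49 and 5.08 with the combination. It fell by 0.83 with the combination (adjusted p = 0.031). That call was lost without PBS replicate 2 or 3 or IL-17A + IL-36γ replicate 1 or 3 (log2 fold change -0.85 to -0.72, adjusted p up to 0.108).

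Chondrocyte markers fell beside the cartilage collagens with IL-36γ and with the combination, but not with IL-17A. Of 12 tested markers other than collagens, the combination lowered 12, with a median of -1.10, against 20.9% of all genes. IL-36γ lowered 5 (median -0.63), against 11.1%. IL-17A lowered 0 and raised 1, against 3.49% and 7.44%. Their summed level was 602 to 757 CPM with PBS, 654 to 767 with IL-17A, 460 to 599 with IL-36γ and 308 to 392 with the combination, and Matn1, too low to be tested, was at 0 in all 3 IL-36γ libraries and near 0 in the others. The 8 cartilage collagens summed to 350 to 452, 243 to 392, 193 to 224 and 122 to 174 CPM in the same groups. Divided by the marker sum of the same library, they came to 0.582 to 0.613 with PBS, 0.371 to 0.521 with IL-17A, 0.341 to 0.419 with IL-36γ and 0.395 to 0.452 with the combination. This ratio was lower in every cytokine library than in every PBS library. Col27a1, which is also a collagen of other tissues, made up 106 to 155 CPM of the PBS sums and 56.7 to 93.8 of those with IL-17A. The ratio without Col27a1 was not computed. The part of cartilage content in these results was not tested.

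Fibrillar collagens of the dermis fell less. All 7 had a log2 fold change below 0 in each group with IL-36γ, but not all were called. The median was -0.67 with IL-36γ, -0.61 with the combination and 0.14 with IL-17A, where it turned to -0.19 without IL-17A replicate 1, and 4 of 7 were called lower in each of the groups with IL-36γ. Col24a1 (chr3:145292472-145552011), a minor fibrillar collagen, was at 5.12, 5.49 and 5.91 CPM with PBS and at 3.64, 5.29 and 3.50 with IL-17A. It was at 2.73, 2.38 and 3.27 CPM with IL-36γ and at 2.42, 2.49 and 2.88 with the combination. Both groups with IL-36γ lay below the other 6 libraries, at -0.98 ± 0.18 (adjusted p = 0.0025) and -1.08 ± 0.18 (adjusted p = 0.00066) against PBS.

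Type V collagen starts type I fibrils and sets their width. Col5a3 (chr9:20770050-20815067) was at 49.8, 68.8 and 59.9 CPM with PBS, at 70.1, 58.6 and 47.8 with IL-17A, at 45.0, 34.5 and 45.6 with IL-36γ and at 30.8, 32.6 and 42.5 with the combination. The groups with IL-36γ lay below every other library. It fell by 0.75 ± 0.17 with the combination (adjusted p = 0.0041) and by 0.51 ± 0.17 with IL-36γ (adjusted p = 0.042), the latter not without PBS replicate 2 or 3 or IL-36γ replicate 1 or 2 (adjusted p up to 0.153). Col5a1 (chr2:27886425-28039514) was at 152, 192 and 160 CPM with PBS and at 281, 168 and 138 with IL-17A. With IL-36γ it was at 105, 99.8 and 107 CPM, and with the combination at 83.6, 102 and 110, below every PBS library. Its log2 fold changes were -0.69 ± 0.21 (adjusted p = 0.028) and -0.77 ± 0.21 (adjusted p = 0.011). The IL-36γ call was lost without PBS replicate 2 or 3 or any 1 IL-36γ library (adjusted p up to 0.0998) and the other without IL-17A + IL-36γ replicate 1 (adjusted p = 0.0504). Col5a2 was at 429 to 527 CPM with PBS and 363 to 432 with the combination, and its -0.22 did not pass the test (adjusted p = 0.14).

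The chains of type I collagen, the bulk of dermal fibrils, were spread more widely. Col1a2 (chr6:4504814-4541544) was at 1745, 1952 and 1527 CPM with PBS and at 2680, 1728 and 1334 with IL-17A. It was at 1085, 1121 and 1080 CPM with IL-36γ and at 1024, 1277 and 1127 with the combination. The groups with IL-36γ were again below every PBS library, at -0.67 ± 0.20 (adjusted p = 0.027) and -0.61 ± 0.20 (adjusted p = 0.028). Both calls were lost when single libraries were left out, namely PBS replicate 2 or any 1 IL-36γ library for the first (adjusted p up to 0.0928), and PBS replicate 2 or IL-17A + IL-36γ replicate 1 or 3 for the second (adjusted p up to 0.0986).

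Col1a1 (chr11:94936224-94953042) was at 805, 1018 and 708 CPM with PBS, at 497, 496 and 447 with IL-36γ and at 506, 659 and 570 with the combination. These groups did not overlap with PBS either, but the differences of -0.81 and -0.54 did not pass the test (adjusted p = 0.069 and 0.17). With IL-17A it was at 1814, 838 and 586 CPM, and replicate 1 of that group was the highest library of all. Col3a1, the type III chain that is abundant in dermis and vessel walls, was at 3260 to 4544 CPM with PBS and 2561 to 3534 with the combination, at -0.29 ± 0.17 (adjusted p = 0.19).

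Per kilobase, Col3a1 was the most abundant collagen in the PBS control group by either length tried, at 389 ± 66.9 CPM per kb of all annotated exons (SD, n = 3) and 687 ± 118 per kb of the transcript with its longest coding sequence. The order of the next members depended on the length. Over all exons, Col17a1 was at 199 ± 4.68, Col1a2 at 140 ± 17.1, Col1a1 at 129 ± 24.2 and Col6a1 at 128 ± 6.58 CPM per kb. Per kb of transcript, a choice made after seeing the data, Col1a2 was at 326 ± 39.7, above Col17a1 at 214 ± 5.03, Col8a1 at 143 ± 7.76, Col1a1 at 142 ± 26.7 and Col6a1 at 137 ± 7.03, of which the last 3 did not differ beyond their spread. The ratio of Col1a1 to Col1a2 per length was 0.873, 0.987 and 0.877 in the PBS libraries and 0.867, 0.838 and 0.783 with IL-36γ. It was 0.936, 0.978 and 0.958 with the combination, and 1.28, 0.918 and 0.832 with IL-17A, where replicate 1 again stood alone. Col1a2 has 12426 bases over all its annotated exons and 5348 in that transcript. With transcript lengths the PBS ratio was 0.435 in place of 0.913, while the order of the groups is the same by construction.

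**Figure D2:**
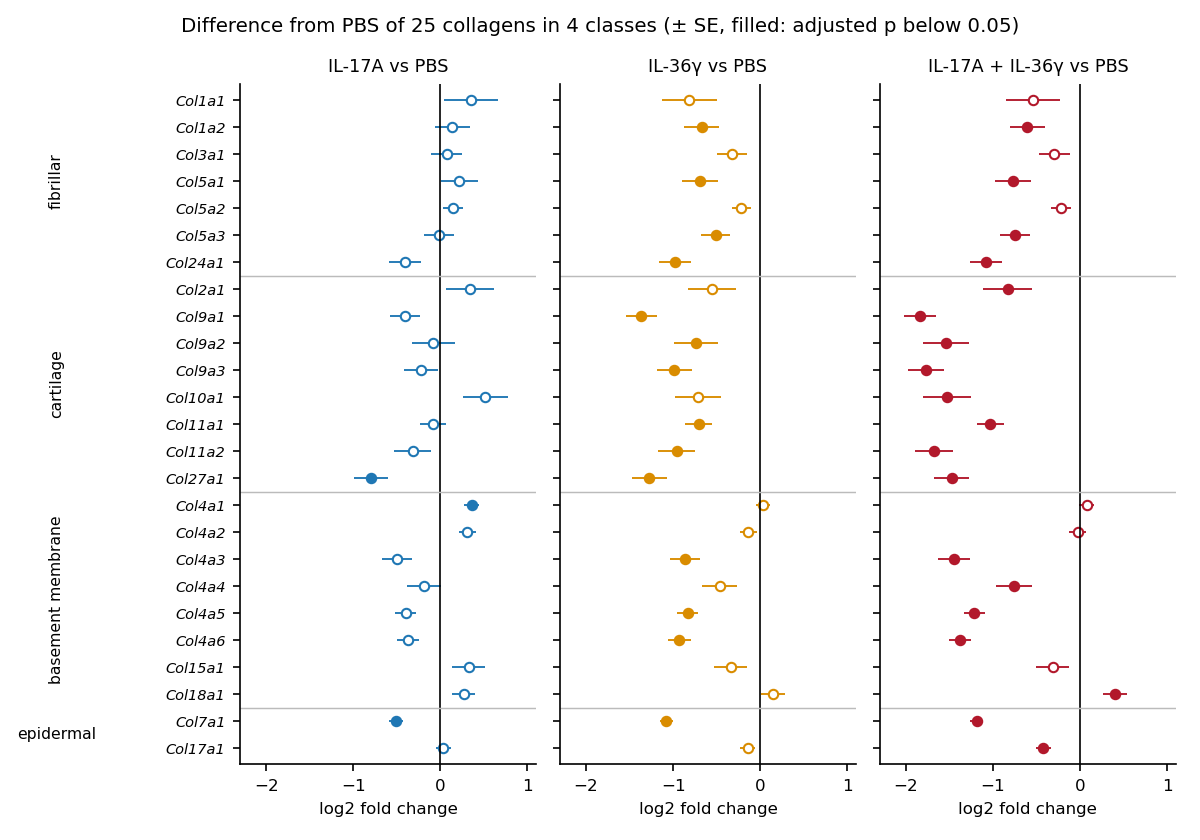
Log2 fold change against PBS (x axis) of 25 collagens in 4 classes (y axis) for each cytokine alone and for the combination, with bars of ± SE and filled points where the adjusted p was below 0.05. All 8 cartilage points are filled in the right panel, between -1.84 and -0.83, and the points of Col4a1 and Col4a2 lie near 0 beside those of Col4a3 to Col4a6.

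Basement membrane collagens split within a single protein family. The chains of type IV collagen are encoded as 3 pairs of genes that face away from each other. Col4a1 and Col4a2, on chromosome 8, have annotated starts 21 bases apart and encode the common network of vessels and epithelia. Col4a3 and Col4a4, on chromosome 1, have starts 72 bases apart, and Col4a5 and Col4a6, on the X chromosome, 1309 bases apart. With IL-17A + IL-36γ, 4 of the 8 members of the class were called lower, namely Col4a3, Col4a4, Col4a5 and Col4a6, and 1 higher, Col18a1. IL-36γ lowered 3, and IL-17A lowered 0 and raised 1.

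The upstream sequence of the Col4a5 and Col4a6 pair is shown because its genes lie back to back and moved together. Both were read from RefSeq promoters of build GRCm38.p6, 5′ to 3′ on the strand of the gene, up to the first annotated exon base. Capitals mark CCAAT and GGGCGG, each searched on both strands. For Col4a5, 34 bases before the RefSeq start were left out as annotated exon, and its promoter holds 1 GGGCGG past the printed bases.
Col4a5, chrX:141475169-141475384, plus strand: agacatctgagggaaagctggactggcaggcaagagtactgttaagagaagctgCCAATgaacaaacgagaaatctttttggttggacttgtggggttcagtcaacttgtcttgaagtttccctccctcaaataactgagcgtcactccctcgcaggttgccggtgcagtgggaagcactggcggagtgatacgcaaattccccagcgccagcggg
Col4a6, chrX:141474077-141474326, minus strand: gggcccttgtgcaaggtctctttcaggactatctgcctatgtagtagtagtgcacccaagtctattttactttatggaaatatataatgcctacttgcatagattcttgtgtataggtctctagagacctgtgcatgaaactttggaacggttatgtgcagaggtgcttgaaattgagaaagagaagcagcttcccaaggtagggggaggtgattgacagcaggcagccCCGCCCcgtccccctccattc
Over windows of 250 bases before to 50 bases after the start, GGGCGG was found in 23 of 38 collagen promoters (60.5%) and in 35.7% of all 32851 promoters. CCAAT was found in 34.2% and 37.4%, and TATAAA in 13.2% and 13.6%. These are matches of letters only. The 38 promoters belong to 35 of the 44 genes, without Col12a1, Col14a1, Col1a1, Col22a1, Col26a1, Col2a1, Col4a3, Col5a2 and Col9a3.

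Col4a6 (chrX:141165403-141474076) was at 69.0, 64.8 and 72.6 CPM with PBS and at 42.8, 59.7 and 56.4 with IL-17A. It was at 35.97, 31.4 and 41.1 CPM with IL-36γ and at 24.5, 25.8 and 28.9 with the combination. The group ranges lay in that order, and every cytokine library was below every PBS library. IL-17A gave a log2 fold change of -0.38 ± 0.13, which was not called (adjusted p = 0.071). IL-36γ gave -0.93 ± 0.13 (adjusted p = 0.00044) and the combination -1.38 ± 0.13 (adjusted p = 2.1e-05). Its neighbour Col4a5 (chrX:141475385-141689234) was at 49.7, 50.1 and 51.5 CPM with PBS, at 35.8, 41.5 and 37.5 with IL-17A, at 28.1, 25.9 and 31.0 with IL-36γ and at 17.3, 22.2 and 25.6 with the combination. None of the 4 ranges overlapped, and the change was -0.83 with IL-36γ (adjusted p = 0.0006) and -1.21 with the combination (adjusted p = 3e-05). IL-17A gave -0.40, which was not called (adjusted p = 0.051).

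Col4a3 (chr1:82586921-82722059) was at 5.73, 6.14 and 6.15 CPM with PBS, at 3.98, 4.69 and 4.10 with IL-17A, at 2.73, 3.08 and 4.10 with IL-36γ and at 1.76, 2.56 and 2.27 with the combination. It fell by 0.86 ± 0.17 with IL-36γ (adjusted p = 0.004) and by 1.45 ± 0.18 with the combination (adjusted p = 9.9e-05). Col4a4 (chr1:82448423-82586849) was at 6.20, 7.87 and 7.73 CPM with PBS and at 3.12, 4.90 and 4.82 with the combination, a fall of 0.76 ± 0.20 (adjusted p = 0.0097). In the other groups it was at 5.26, 8.04 and 5.79 CPM with IL-17A and at 5.29, 4.69 and 5.78 with IL-36γ, and neither passed the test. In Col4a3, 5.65% of exon bases overlap with C430014B12Rik on the opposite strand.

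The pair of the common network did not follow. Col4a1 (chr8:11198423-11312826) was at 167, 176 and 157 CPM with PBS, at 175, 164 and 173 with IL-36γ and at 175, 172 and 181 with the combination. Neither group differed from PBS by the test (log2 fold change 0.03 and 0.08, adjusted p = 0.8 and 0.48). With IL-17A it rose to 239, 217 and 186 CPM, above every PBS library (0.36 ± 0.09, adjusted p = 0.028). That call was lost without any 1 of PBS replicates 2 and 3, IL-17A replicates 1 and 2 and IL-17A + IL-36γ replicate 2 (log2 fold change 0.24 to 0.39, adjusted p of 0.0517 to 0.15). Col4a2 was at 108 to 117 CPM with PBS and 106 to 118 with the combination, at -0.03 ± 0.10 (adjusted p = 0.84). The ratio of Col4a1 to Col4a2 per length was 1.295 ± 0.0392 with PBS and 1.40 ± 0.0910 with the combination, and that of Col4a5 to Col4a6 was 0.871 ± 0.0411 and 0.972 ± 0.115 (SD, n = 3 each).

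Col18a1 and Col15a1 carry sugar chains and sit at the outer face of basement membranes. Col18a1, which yields endostatin, was at 73.6, 54.9 and 56.8 CPM with PBS and at 82.7, 89.2 and 73.2 with the combination, where PBS replicate 1 overlapped. It rose by 0.40 ± 0.14 (adjusted p = 0.031), a call lost without PBS replicate 2 or 3 or IL-17A + IL-36γ replicate 1 or 2 (log2 fold change 0.33 to 0.40, adjusted p of 0.0748 to 0.114). Col15a1 was at 19.96 to 28.4 CPM with PBS and 18.7 to 21.4 with the combination, at -0.31 ± 0.19 (adjusted p = 0.2). Endothelial markers, for comparison, summed to 176 to 215 CPM with PBS and 164 to 177 with the combination. Of these markers, 5 of 8 were called lower and 0 higher, against 20.9% and 23.7% of all genes.

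Both epidermal collagens fell with the combination (median -0.80), and 1 of them also with each cytokine alone. Col7a1 (chr9:108953586-108984875), the anchoring fibril collagen, was at 231, 231 and 236 CPM in the PBS libraries. It was at 165, 169 and 157 CPM with IL-17A, at 100.3, 108 and 123 with IL-36γ and at 96.6, 104 and 106 with the combination. Every cytokine library was below PBS, and both groups with IL-36γ were below IL-17A. It fell by 0.51 ± 0.08 on the log2 scale with IL-17A (adjusted p = 0.01) and by 1.08 ± 0.08 with IL-36γ (adjusted p = 1.5e-05). The combination gave -1.19 ± 0.08 (adjusted p = 3.9e-06), or a 2.28-fold lower level. Without PBS replicate 3 the IL-17A change of Col7a1 was the same size, at -0.51, and was not called (adjusted p = 0.0627).

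Col17a1 (chr19:47646344-47692094), the hemidesmosomal collagen, was at 1225, 1172 and 1183 CPM with PBS, at 1249, 1256 and 1163 with IL-17A and at 1117, 949.8 and 1173 with IL-36γ. With the combination it was at 904, 877 and 891 CPM, below the other 9 libraries, and fell by 0.42 ± 0.09 (adjusted p = 0.002). Neither cytokine alone gave a call (0.04 and -0.14). Basal keratinocyte markers did not move as 1 group. Krt5 rose from a mean of 2973 to 5436 CPM with the combination and Krt14 from 3987 to 10397, while Krt15 fell from 1243 to 548. Trp63, the transcription factor of basal cells, was at 327 CPM with PBS and 307 with the combination (log2 fold change -0.09, adjusted p = 0.37). The part of basal cell content in the epidermal collagen values was not tested.

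**Figure D3:**
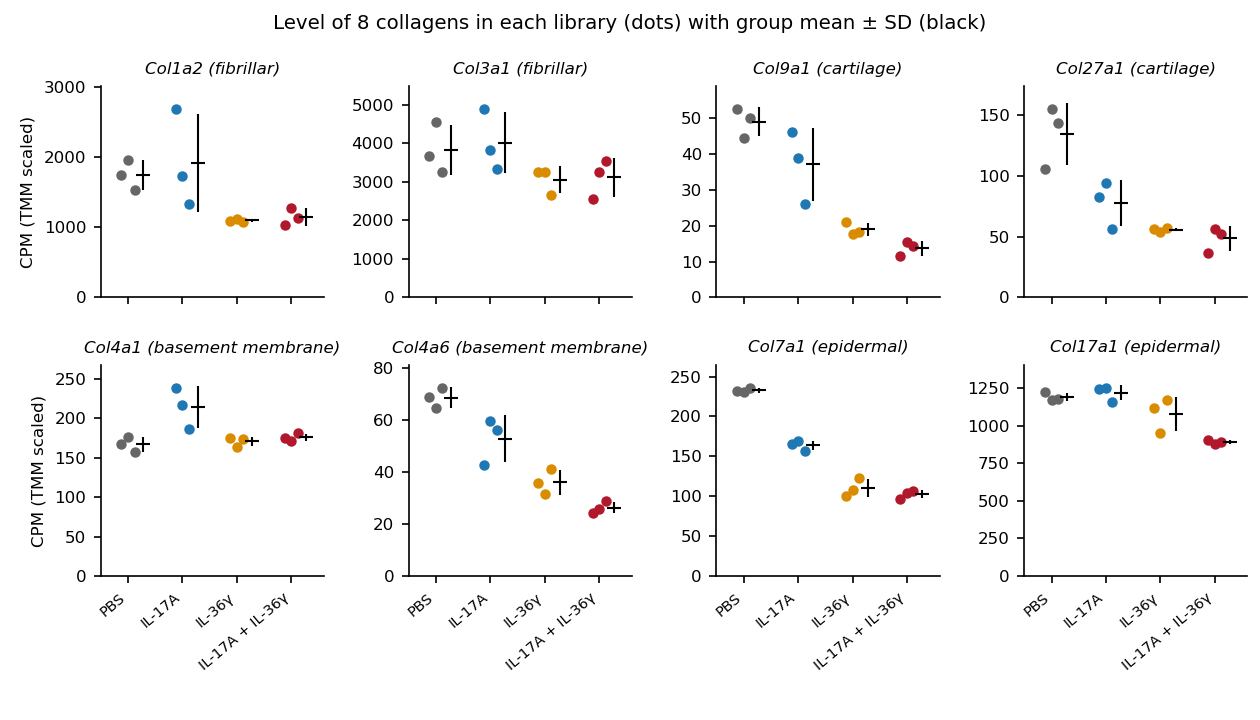
Level of 8 collagens in CPM (y axis, from 0) in each library (coloured dots, by group) with the group mean ± SD (black, n = 3). Col9a1, Col4a6 and Col7a1 are lower in every library with IL-36γ than with PBS, Col4a1 is raised with IL-17A only, and the Col17a1 libraries of the combination lie below all others.

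Outside these 4 classes, most called members were also lower. Both chains of type VIII collagen, which forms short-chain networks under endothelia, fell with IL-36γ and with the combination. Col8a1 was at 705, 778 and 714 CPM with PBS, at 1001, 1029 and 797 with IL-17A, at 579, 535 and 598 with IL-36γ and at 372, 407 and 469 with the combination. None of the 4 ranges overlapped, and the change was -0.82 ± 0.11 with the combination (adjusted p = 0.00018) and -0.36 ± 0.11 with IL-36γ (adjusted p = 0.032). Col8a2 changed by -0.92 (adjusted p = 9.6e-05) and -0.41 (adjusted p = 0.019). The IL-36γ calls of both were lost without PBS replicate 2 or 3 or IL-36γ replicate 2, and that of Col8a1 also without IL-36γ replicate 1 (adjusted p up to 0.111 for Col8a1 and 0.0818 for Col8a2).

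The fibril-associated collagens decorate fibrils without forming them. With the combination, Col14a1, Col16a1, Col20a1 and Col22a1 were called lower out of 6, at -0.94, -0.96, -1.30 and -1.50. Col22a1 overlapped with PBS, at 1.91, 1.39 and 3.78 CPM against 2.57, 9.40 and 8.21. IL-36γ lowered Col14a1, Col16a1 and Col20a1, at -0.66, -0.70 and -0.98. The IL-36γ call of Col14a1 was lost without PBS replicate 2 or IL-36γ replicate 2 (adjusted p up to 0.0553), and the combination call of Col22a1 without PBS replicate 2 or 3 or IL-17A + IL-36γ replicate 1 or 2 (log2 fold change -1.37 to -1.17, adjusted p up to 0.0828). Col12a1, which lies along type I fibrils, was at 152 to 186 CPM with PBS and 211 to 290 with the combination, above every PBS library, but its 0.48 ± 0.22 did not pass the test (adjusted p = 0.098). Col19a1 was near the limit of detection, at 6 to 21 counts per library.

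Type VI collagen forms beaded filaments around cells, from a core of 3 chains and alternative chains that replace the third. Of the core, Col6a1 fell by 0.28 with IL-36γ (adjusted p = 0.03) and by 0.42 with the combination (adjusted p = 0.002), and Col6a3 by 0.49 (adjusted p = 0.016) and 0.36 (adjusted p = 0.04). The IL-36γ call of Col6a1 was lost without PBS replicate 1 or 2 or IL-36γ replicate 2 or 3 (adjusted p up to 0.0988), that of Col6a3 without PBS replicate 2 (adjusted p = 0.0543), and its combination call without any 1 of 6 libraries (PBS replicates 1 and 2, IL-36γ replicates 2 and 3, IL-17A + IL-36γ replicates 1 and 3, adjusted p up to 0.146). Col6a2 did not pass the test against PBS in any group.

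Of the alternative chains, Col6a5 was called higher with IL-36γ and Col6a4 in both groups with IL-36γ. Col6a5 had 12, 48 and 34 counts with PBS and 243, 76 and 103 with IL-36γ, at 2.35 ± 0.71 (adjusted p = 0.029), a call lost without PBS replicate 1 or 3 or IL-36γ replicate 1 (log2 fold change 1.66 to 2.45, adjusted p up to 0.135). With the combination it had 12, 29 and 101 counts, which overlapped with PBS and gave no call (adjusted p = 0.36). Col6a4 had 1, 3 and 2 counts with PBS, 9, 12 and 8 with IL-36γ and 8, 11 and 14 with the combination. It was called higher in both (adjusted p = 0.0041 and 0.00074), but it passed the filter on low counts only through libraries of those groups. Col6a6, at 36 to 351 counts, was not called.

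Among the transmembrane collagens, Col25a1, which is known from muscle innervation, was at 9.52, 7.76 and 7.88 CPM with PBS, at 2.26, 3.56 and 2.55 with IL-36γ and at 4.02, 5.38 and 3.91 with the combination. It fell by 1.58 ± 0.18 with IL-36γ (adjusted p = 0.00016), the deepest fall of any member there, and by 0.92 ± 0.18 with the combination (adjusted p = 0.0015). Col23a1 rose by 0.31 ± 0.09 with IL-17A (adjusted p = 0.042), a call lost on leaving out any of 9 libraries (all but PBS replicate 1 and IL-17A + IL-36γ replicates 1 and 3, adjusted p up to 0.231). Col13a1 and, of the unclassified members, Col26a1 were not called. Col28a1 fell by 0.57 ± 0.19 with the combination (adjusted p = 0.03), which was lost without PBS replicate 1 or 3 or IL-17A + IL-36γ replicate 1 (log2 fold change -0.58 to -0.34, adjusted p up to 0.0807).

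The direct comparisons asked what the second cytokine added. Adding IL-36γ to IL-17A lowered 33 of the 44 members and raised the low-count Col6a4, against 17.7% and 15.1% of all genes tested, and 10 were more than 2-fold lower, against 4.49%. By class, 8 of 8 cartilage (median -1.40), 7 of 8 basement membrane (-0.61), 6 of 7 fibrillar (-0.74) and 2 of 2 epidermal collagens (-0.57) were lower. Col10a1 fell the most, by 2.04 ± 0.28 (adjusted p = 0.00048). Col4a1 and Col4a2 were lower here by 0.28 and 0.34 (adjusted p = 0.025 and 0.019), and Col1a1 by 0.90 (adjusted p = 0.044). The Col4a1 call was lost without IL-17A replicate 1 or 2 or any 1 combination library (log2 fold change -0.29 to -0.17, adjusted p up to 0.129), and that of Col4a2 without IL-17A replicate 1 or 2 or combination replicate 1 or 3 (-0.33 to -0.19, adjusted p up to 0.0845). That of Col1a1 was lost without any of 9 libraries, all but PBS replicates 1 and 2 and IL-17A replicate 3 (-1.03 to -0.28, adjusted p up to 0.266). Also lost were the calls of Col4a4 (without any of 10 libraries, adjusted p up to 0.247) and Col15a1 (any of 5, up to 0.107). The same held for Col5a2 (any of 4), Col24a1 and Col27a1 (any of 3 each) and Col1a2 (combination replicate 1). Of the 34 calls, 20 held with each library left out in turn. Without IL-17A replicate 2, 22 members were called in place of 34, and without IL-17A + IL-36γ replicate 1 there were 21. The shares of all genes were 20.8% and 23.1% there.

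Adding IL-17A to IL-36γ called 0 of the 44 by edgeR, against 0.0206% of all genes. At an unadjusted p under 0.05 there were 16 members, against 15.1% of all genes, and DESeq2 called 11, against 8.51% of all genes. The class medians were -0.59 for cartilage, -0.19 for epidermal, -0.13 for basement membrane and 0.00 for fibrillar collagens. In 6 of 8 cartilage members and in 16 of the 44 all combination libraries lay below all IL-36γ libraries, against 11.3% of all genes. The sizes differed by member. For Col9a3 the difference was -0.78 ± 0.20 (adjusted p = 0.14), and for Col1a2 it was 0.06 ± 0.20 (adjusted p = 0.92).

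**Figure D4:**
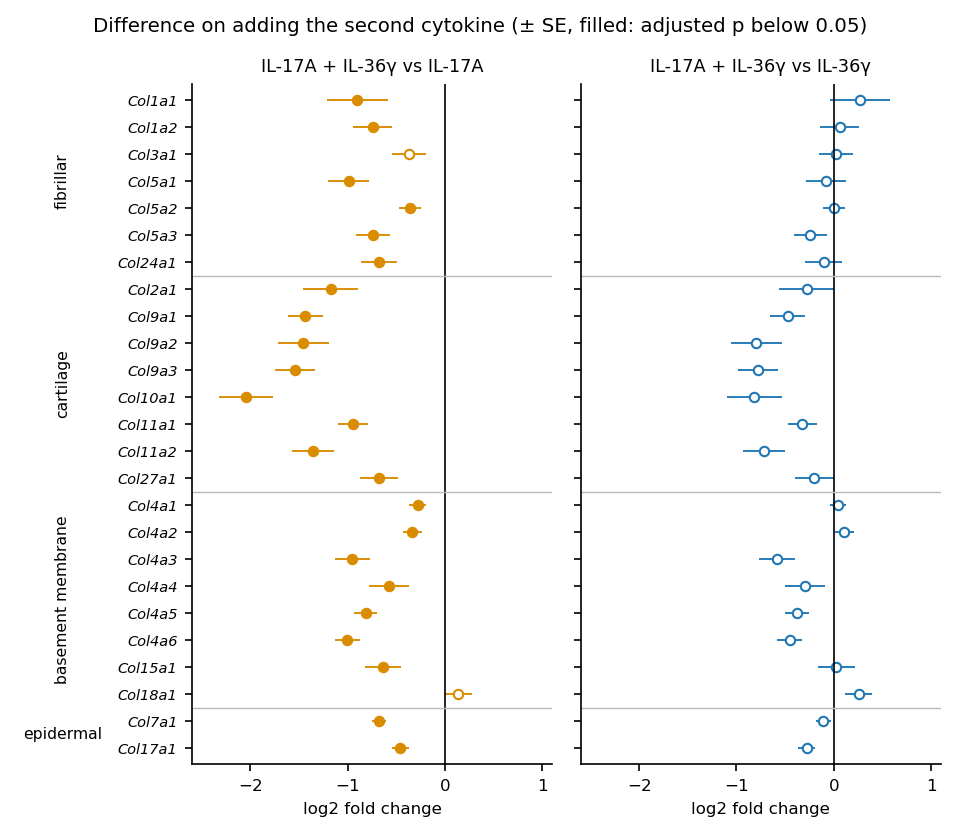
Log2 fold change (x axis, ± SE) of 25 collagens when IL-36γ was added to IL-17A (left) and when IL-17A was added to IL-36γ (right), with filled points at an adjusted p below 0.05. In the left panel 23 points are filled and lie below 0, and in the right panel all are open.

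The interaction term asked whether IL-17A acted differently with IL-36γ present. It called 1 member, against 0.551% of all genes, and 9 at an unadjusted p under 0.05, against 22.5%. Col8a1 was 0.36 higher with IL-17A than with PBS and 0.46 lower with the combination than with IL-36γ. Neither change was called on its own (adjusted p = 0.055 and 0.12). The difference between them was -0.82 ± 0.16 (interaction, adjusted p = 0.047). Col8a2 had a like value, -0.79 ± 0.16 (adjusted p = 0.053), that did not pass. Leaving out any 1 of 8 libraries took the Col8a1 call away, namely PBS replicates 2 and 3, IL-17A replicates 1 and 2, IL-36γ replicates 1 and 3 and IL-17A + IL-36γ replicates 1 and 2 (log2 values of -0.85 to -0.71, adjusted p of 0.0786 to 0.149).

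Genes that make, bind and break down collagen did not move as a block. For these lists and those below, the shares of all genes tested that the combination called were 23.7% higher and 20.9% lower. Of 19 genes for chain hydroxylation and folding, the combination raised 6 and lowered 6 (median -0.01). P4hb, a subunit of prolyl 4-hydroxylase and a general protein disulfide isomerase, rose by 0.97 ± 0.10 (adjusted p = 4.3e-05), P4ha3 by 1.74 from under 0.4 CPM, and Ppib by 0.38. The lysyl hydroxylase Plod2 fell by 0.83, the prolyl 3-hydroxylase P3h2 by 0.71 and Colgalt2 by 0.99. Of 14 genes for procollagen processing and cross-linking, 8 were lower and 1 higher (median -0.46). The N-proteinase Adamts14 fell by 1.95 ± 0.15, from 69.4, 81.1 and 77.6 CPM to 17.0, 16.5 and 25.6 (adjusted p = 9e-06), the lysyl oxidase-like Loxl4 by 1.55 and Tll2 by 1.85, while Lox rose by 0.53.

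Of 10 small leucine-rich proteoglycans and other binding proteins, which space and coat fibrils, 9 were lower and 0 higher (median -0.56), led by Dpt (-1.31), Omd (-1.12) and Fmod (-1.03). Among 9 tested receptors, 4 were lower, led by Itga10 (-0.95), the uptake receptor Mrc2 (-0.94) and Itga2 (-0.72), and the leukocyte receptor Lair1 was 2.69 higher. Of 7 tested collagenases and other collagen-degrading enzymes, the neutrophil collagenase Mmp8 (4.72) and Mmp9 (1.40) were higher, and Mmp1b (-1.78), Ctsk (-0.59) and Mmp2 (-0.52) lower. Of 20 laminins and other partners of the basement membrane, 11 were lower and 0 higher (median -0.36), led by Lama2 (-0.998), Dst (-0.87) and Lamc3 (-0.81). IL-36γ alone gave 6 higher and 2 lower, 0 and 5, 0 and 3, 1 and 3, 1 and 3, and 0 and 10 in these lists in the same order. With IL-17A the counts were 3 and 0, 2 and 2, 0 and 0, 1 and 0, 1 and 0, and 0 and 0. Of all genes tested, 17.3% were higher and 11.1% lower with IL-36γ, and 7.44% and 3.49% with IL-17A. The 2 of 19 lower with IL-36γ in the first list were near the share of all genes.

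Markers of other cell types of the ear moved as well. Of 10 fibroblast markers the combination lowered 5 and raised 1 (median -0.26), and their sum was 959 to 1189 CPM with PBS, 1053 to 1452 with IL-17A, 974 to 1025 with IL-36γ and 832 to 980 with the combination. Summed fibrillar collagens divided by that sum came to 6.08 to 7.17, 5.598 to 7.12, 4.60 to 5.57 and 5.50 to 6.06. Against PBS, the combination lowered 3 of 6 mural cell, 5 of 5 Schwann cell, 5 of 5 adipocyte and 2 of 10 skeletal muscle markers and raised 0 of them. It raised 8 of 8 neutrophil and 5 of 6 macrophage markers and 2 of 5 suprabasal keratinocyte markers and lowered 0. Of all genes tested, the combination lowered 20.9% and raised 23.7%, and the skeletal muscle count was near the first share. The median of the 10 muscle markers was nevertheless -1.72. Their sum spread widely, from 419 to 3504 CPM with PBS and from 261 to 1363 with the combination. Neutrophil markers summed to 16.1 to 94.1 CPM with PBS and 7628 to 10054 with the combination. The part of these shifts in the collagen values was not tested.

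**Figure D5:**
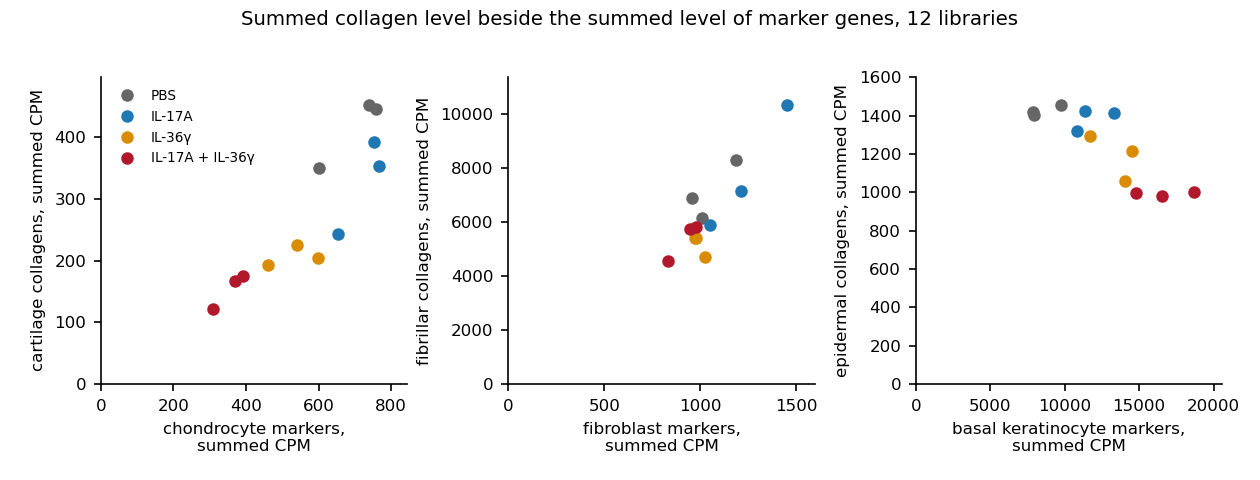
Summed CPM of cartilage, fibrillar and epidermal collagens (y axes, from 0) against summed CPM of chondrocyte, fibroblast and basal keratinocyte markers (x axes, from 0), with 1 dot per library coloured by group. Cartilage collagens fall together with chondrocyte markers, from 350 to 452 CPM with PBS to 122 to 174 with the combination, and epidermal collagens are lower where the keratinocyte sum, which is mostly Krt5 and Krt14, is higher.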

How the data were processed

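RNA of 12 mouse ears was sequenced from stranded total RNA libraries (TruSeq). Per the labels, the authors aligned reads to mm10 with STAR 2.5.2b, and the deposited values are raw read counts per gene from featureCounts (Subread 1.5.1). The strand setting is not given in the sources used here. The authors' tables of DESeq2 (1.30.0) fold changes and p-values were used only for their gene symbols. Samples were grouped by their titles. Members and gene lists were chosen with earlier results of these data known. Nothing tells whether libraries came from separate litters or cages, so p-values measure the spread between these samples.

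Counts were filtered with filterByExpr (minimum count 10), scaled by TMM and tested in edgeR 4.0.16 (R 4.3.3) in 1 quasi-likelihood fit of the 4 group means over 12 libraries, with Benjamini-Hochberg adjustment over 19408 genes. The script was checked on simulated data. DESeq2 1.42.0, other scalings, filters, fits and libraries left out in turn were alternatives. Replicate pairs differed by 7.09 to 64.0 in chi-square per gene, and none was a copy of another. Pairs with PBS replicate 1 were at 64.0 and 49.6, against 7.09 for PBS replicates 2 and 3. Pairs with IL-17A replicate 1 were at 41.1 and 53.7, against 9.20 for IL-17A replicates 2 and 3. All members of the 4 compared classes are named, with values per library for up to 5 per class by smallest adjusted p against PBS, and of the other classes those called. Of each pathway list at most 3 genes per direction are named, by size of change with the combination. Positions, exons and coding sequences are from GENCODE vM21 (GRCm38) and promoters from RefSeq. Repeats were read as codons, in place of the planned protein table, which was not used here.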

Additional observations from a re-analysis of the deposited data

Results flagged for a closer look

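Col8a1 differed between the backgrounds in which IL-17A was given. The effect of adding IL-17A to IL-36γ, less its effect when added to PBS, came to -0.82 on the log2 scale (interaction term in edgeR, adjusted p = 0.0475). The level of Col8a1 was higher with IL-17A than with PBS in 3 of 3 libraries and lower with the combination than with IL-36γ in 3 of 3. Neither of these differences was called on its own in edgeR (adjusted p = 0.055 and 0.12). Col8a1 was the only member of 44 that passed the interaction test. The call was lost without any 1 of 8 of the 12 libraries, and under RLE and library size scaling. No outlier test was run within the groups of 3 libraries.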

How the results depend on the processing

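Collagens called lower with the combination were 22 to 29 over the 12 libraries left out in turn (28 with all), and kept within 1.5 times under every other alternative except the 2-fold threshold (14). With IL-36γ, 13 to 25 were lower (4 past 2-fold, 1.98% of all genes). Those higher were 1 to 2 (1 with at least 10 counts in every library, 18.5%, and 1 with the compared groups only, 13.1%). Combination calls higher were 1 to 3. They were 1 under library size scaling (16.6% of all genes), with at least 10 counts in every library (24.8%) and past 2-fold (7.35%). With IL-17A, 0 to 5 were higher and 0 to 4 lower. Shares of all genes are not given here for these ranges over libraries left out. The numbers higher with IL-17A were 1 under RLE scaling (5.5% of all genes), 0 under library size (2.51%) and 1 without a filter (3.06%). They were 0 with the compared groups only (0.0906%), 4 by DESeq2 (10.5%) and 0 past 2-fold (1.07%). Those lower were 8 under library size (10.3% of all genes), 4 without a filter (2.16%), 1 with the compared groups (0.016%), 8 by DESeq2 (11.1%) and 0 past 2-fold. Calls were 21 to 35 on adding IL-36γ (11 past 2-fold, 8.95% of all genes). On adding IL-17A they were 0 to 2 (3 without a filter, 0.825% of all genes, and 11 by DESeq2, 8.51%). For the interaction they were 0 to 3, with 0 under RLE, library size, at least 10 counts in every library and 2-fold. Interaction calls were 3 without a filter (1.36% of all genes) and 6 by DESeq2 (11.8%). The cause was not tested.

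With the replicate number as a block, IL-17A lowered 6 members in place of 2 (6.29% of all genes), and 3 in place of 1 had an interaction (4.55%). Same-numbered libraries correlated at -0.199 to 0.352 (median 0.097), not all above 0.1, against a median of -0.050 for other numbers, so the numbers were not taken to pair the samples. The share of best matches that were with the own number was 0.556, and 3 of 12 libraries matched best with their own number in all 3 other groups.

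Library size scaling, which moves the median of all genes from -0.03 to -0.17 with the combination and from -0.02 to -0.16 with IL-36γ, gave class medians of -0.82 (fibrillar, IL-36γ), -0.56 (basement membrane, IL-36γ) and, for the epidermal class, -0.41, -0.76 and -0.95 with IL-17A, IL-36γ and the combination. With Col23a1 counted as epidermal, that median was 0.0351, -0.14 and -0.42, reversed for IL-17A. Leaving out single libraries gave -0.73 to -0.58 for fibrillar and -0.52 to -0.33 for basement membrane collagens with IL-36γ. No call of a collagen reversed under any alternative. Under all of those run per gene, 23 of 30 combination, 14 of 24 IL-36γ and 0 of 4 IL-17A calls against PBS held. On adding IL-36γ to IL-17A, 20 of 34 calls held. Marker and pathway genes were tested in the 12-library fit only. At 25293468 to 34759293 counts per library, depth limits Col6a4, Col19a1 and Col26a1.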
